A study of Mus musculus with 6 samples.

Results

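The genes followed here are 10 markers of mouse embryonic stem cells, namely Dppa2, Dppa3, Dppa4, Dppa5a, Utf1, Zfp42, Fgf4, Tcl1, Pramel6 and Pramel7. They were taken by name, as 10 of the 27179 identifiers in the deposited count table, and all 10 passed the filter on low counts that left 14199 genes for testing. The cells were embryonic stem cells of the ES-E14TG2a background, and in every library Trim71 carried a FLAG epitope tag. In 3 libraries (R783H A, B and C) the tagged Trim71 had the R783H amino acid change, a change that the series links to hydrocephalus, and in the other 3 (WT A, B and C) it was wild type. Trim71, from the TRIM-NHL family, binds RNA and is made in early embryos and stem cells. All cells grew on gelatin-coated plates in 2i + Lif medium, which held little serum, N2N27 supplement, leukemia inhibitory factor, the GSK3 inhibitor CHIR99021 and the MEK inhibitor PD0325901. RNA was selected with oligo(dT). Nothing in the labels tells whether a replicate letter stands for a clone, a culture or a library preparation, so p-values measure the spread between these libraries, which may be technical.

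Library totals ran from 20894277 to 29079670 counts, and each R783H library was deeper than each WT library. Levels are given as CPM, a library's counts scaled to a common total with TMM factors, and differences as log2 of R783H over WT with the standard error (SE) and the adjusted p of edgeR's quasi-likelihood test. Of the tested genes 64.5% were called at an adjusted p under 0.05, with 33.5% higher and 30.9% lower in R783H, and the CPM of the groups did not overlap for 68.1%. A call or a lack of overlap is therefore common in this comparison, and the size of a difference says more than the call. In bulk RNA, fewer cells with a transcript and less of it per cell cannot be told apart.

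These genes are marked by expression in the inner cell mass and in naive stem cells, but their products act at different places. Some work on chromatin (Dppa2, Dppa4, Utf1, Zfp42), some on DNA methylation through the UHRF1 protein (Dppa3, Pramel7), and others bind RNA (Dppa5a), signal from outside the cell (Fgf4) or act on the AKT kinase (Tcl1). Several are known targets of the pluripotency factors OCT4 (Pou5f1) and SOX2.

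All 10 markers were called, 6 higher and 4 lower in R783H, beside 64.5% of all tested genes in either direction. Pramel7, Dppa3, Pramel6, Tcl1, Fgf4 and Dppa5a rose, and Utf1, Dppa2, Zfp42 and Dppa4 fell. Most differences were small. The median absolute log2 difference of the markers was 0.40, against 0.34 over all tested genes, and 1 marker (Pramel7) changed at least 2-fold, as 9.08% of all tested genes did with a call. Their summed level hardly moved, at 2654, 2782 and 2608 CPM in R783H A, B and C and 2764, 2776 and 2745 CPM in WT A, B and C. Most of that sum was Dppa5a, which rose from a mean of 861 to 1061 CPM, and Zfp42, which fell from 1133 to 886 CPM. The sum therefore says little about the other markers. Groups did not overlap for any of the 10, beside 68.1% of all tested genes without overlap. The calls of Dppa3 and Pramel6 were lost in some alternative settings given with each gene below.

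**Figure D1:**
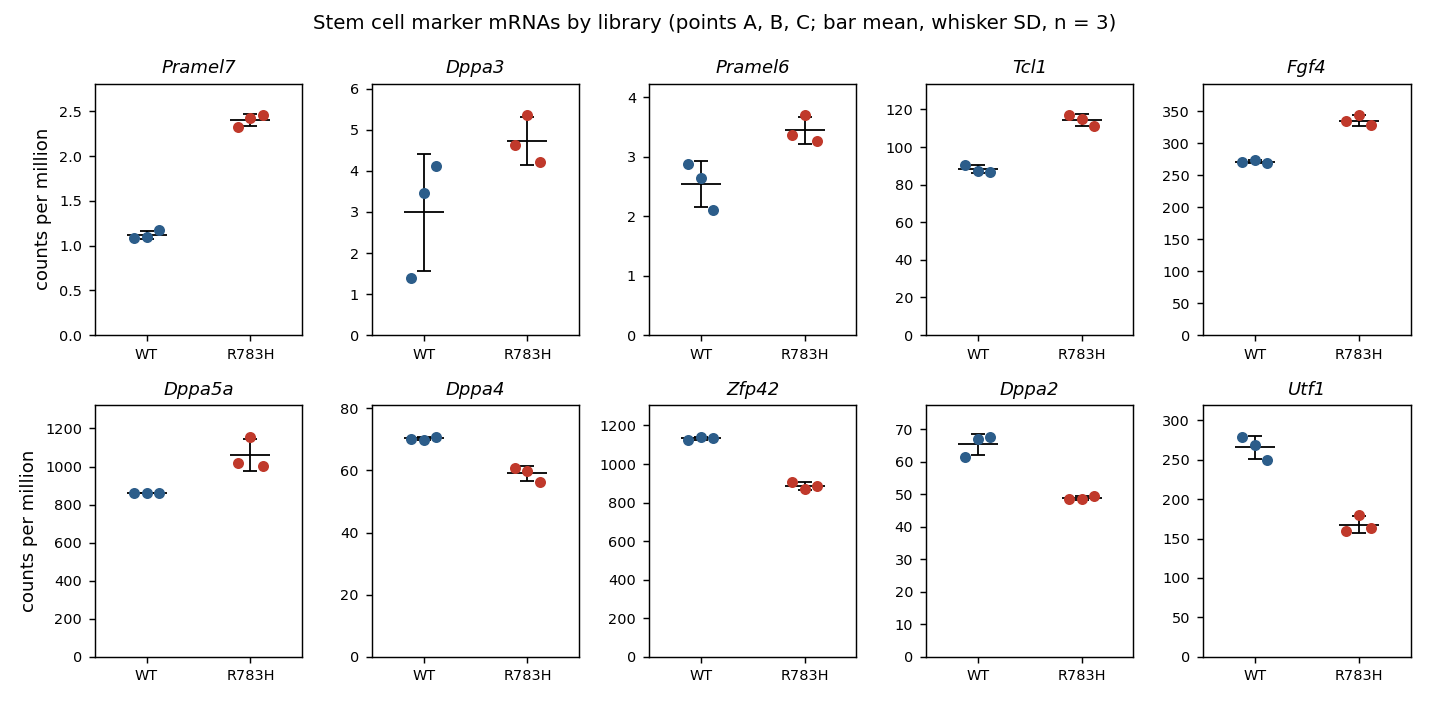
CPM of each marker (vertical axes, each from 0) in the WT and R783H libraries, with 1 point per library in the order A, B, C, a bar at the mean and whiskers of 1 SD (n = 3). Panels run from the largest increase, Pramel7, to the largest decrease, Utf1, and WT A of Dppa3 lies far below the other WT points.

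Dppa2 and Dppa4 encode SAP-domain proteins that bind chromatin together, keep the promoters of developmental genes free of DNA methylation and can switch on genes of the 2-cell embryo. Their genes lie 16 kb apart on chromosome 16, Dppa4 (Entrez 73693) at positions 48283735 to 48294292 and Dppa2 (73703) at 48310274 to 48319513 of GRCm38.p6, both on the plus strand. Dppa2 stood at 48.6, 48.4 and 49.5 CPM in R783H A, B and C and at 61.5, 66.8 and 67.6 CPM in WT A, B and C. Each R783H library was below each WT library. Dppa2 fell by 0.42 on the log2 scale (SE 0.05, adjusted p = 3.39e-05). Dppa4 stood at 60.8, 59.8 and 56.4 CPM in R783H and at 70.1, 69.9 and 70.8 CPM in WT. The groups were again apart, and Dppa4 fell by 0.25 (SE 0.05, adjusted p = 8.14e-04). Both members of the pair were thus lower. For Dppa4, the 650 tested genes within 25% of its length and 5 percentage points of its GC content had a median of -0.14. For Dppa2 the median of 1078 such genes was -0.06. With an offset for transcript length and GC content Dppa4 fell by 0.19 and Dppa2 by 0.42, so part of the fall of Dppa4 was shared with genes like it in length and GC content. The ratio of Dppa2 to Dppa4 counts, which does not depend on library scaling, was 0.829 ± 0.0413 in R783H and 0.93 ± 0.045 in WT (SD, n = 3 each). The nearest values, 0.876 in R783H C and 0.878 in WT A, almost met, and this difference was not tested. Part of each transcript (906 nt of Dppa2, 532 nt of Dppa4) has a copy of at least 98% identity in another annotated gene, Gm9788 and Gm14058 respectively. The other tested neighbours on this stretch moved the other way. Morc1, 112 kb beyond Dppa2 and a germline ATPase gene, rose from 127 ± 4.29 to 157 ± 2.74 CPM (log2 0.31, SE 0.04, adjusted p = 9.87e-05), and Nectin3, 1785 kb before Dppa4, rose by 0.56 (SE 0.10, adjusted p = 6.54e-04). Neighbours here and below are the nearest tested genes on each side, taken by position alone.

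Genes of the 2-cell embryo that are linked to Dppa2 and Dppa4 were mostly at low levels. The table held 20 such genes, of which 8 could be tested. The quasi-likelihood test of edgeR called 0 of them, with 0 at an unadjusted p under 0.05, 0 by DESeq2 and 0 by limma-voom. Their median log2 difference was 0.00, against 0.03 over all tested genes. Their summed level was 7.51 to 9.52 CPM in R783H and 7.48 to 9.05 CPM in WT. Zscan4d, a zinc finger gene of the 2-cell stage chosen after its values were seen, stood at 0.862 ± 0.16 CPM in R783H libraries, with 0.79 ± 0.168 CPM in those of WT (log2 0.13, SE 0.26). With this SE, a difference as small as that of Dppa2 was not detectable for Zscan4d at this depth. Zfp750, with the most counts of the 8 and also picked out after its values were seen, stood at 3.22 ± 0.41 CPM in R783H libraries and at 3.27 ± 0.405 CPM in those of WT (log2 -0.03, SE 0.15, adjusted p = 0.893). Usp17ld, Tdpoz1 and Sp110 had no count in any library. Near-identical copies of the 2-cell genes, Zscan4d among them, were not searched for, and how reads shared between copies were counted is not given. Counts of these genes may therefore be incomplete or mixed between copies.

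Dppa3 (Stella or PGC7, Entrez 73708, chromosome 6, 122626424 to 122630271) is a marker of germ cells and the inner cell mass whose protein binds UHRF1 and protects DNA from changes in methylation. It was counted 139, 152 and 125 times in the R783H libraries and 28, 85 and 88 times in WT A, B and C, or 4.62, 5.36 and 4.22 CPM against 1.39, 3.47 and 4.12 CPM. WT A stood far below the other 5 libraries, and WT C came close to R783H C. The log2 difference was 0.64 (SE 0.26), with an adjusted p of 0.0497, at the edge of the threshold. Without WT A it was 0.32 with an adjusted p of 0.104, and without WT C it was 0.92 with an adjusted p of 0.0158. Over 17 alternatives its adjusted p ran from 0.00163 to 0.207, and 8 of them ended the call. The transcript shares 451 nt with the copy Dppa3-ps. The coefficient of variation (CV) of Dppa3 was 47.8% in WT and 12.2% in R783H, the widest of the 10 markers in each group. Gdf3, a TGF-beta family gene of stem cells 16.3 kb before Dppa3, fell from 181 ± 3.78 to 152 ± 4.05 CPM (log2 -0.25, SE 0.04, adjusted p = 3.62e-04), so the adjacent pair did not move together.

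Pramel6 and Pramel7 belong to a family of leucine-rich repeat proteins related to the human antigen PRAME. Pramel7 is known to bring UHRF1 to a cullin 2 ubiquitin ligase in the inner cell mass and so to lower DNA methylation. The 2 genes lie 14.1 kb apart on chromosome 2 on opposite strands, Pramel7 (Entrez 347712) at 87489088 to 87492418 on the minus strand and Pramel6 (347711) at 87506565 to 87510865 on the plus strand. Pramel7 was counted 70, 69 and 73 times in R783H A, B and C and 22, 27 and 25 times in WT, or 2.33, 2.43 and 2.46 CPM against 1.09, 1.1 and 1.17 CPM. All R783H libraries stood well above WT, with little spread in either group (CV 2.93% in R783H and 3.99% in WT). At counts this low the counting error is larger than that spread, so the spread does not measure precision. Pramel7 rose by 1.10 (SE 0.17, adjusted p = 1.45e-04), the largest change of the 10 markers, and stood at percentile 95.2 of the log2 differences of all tested genes. Pramel6 was counted 101, 105 and 97 times in R783H and 58, 65 and 45 times in WT, or 3.36, 3.7 and 3.27 CPM against 2.87, 2.65 and 2.11 CPM. WT C was the lowest and WT A lay not far under R783H C. Pramel6 rose by 0.44 (SE 0.15, adjusted p = 0.0231). That call was lost without R783H B (0.36, adjusted p = 0.0672), without WT C (0.32, adjusted p = 0.101) and with DESeq2 (0.42, adjusted p = 0.0897). The count ratio of Pramel7 to Pramel6 was 0.701 ± 0.0482 in R783H and 0.45 ± 0.0931 in WT (SD, n = 3 each), with no overlap. The next tested gene after Pramel6, the olfactory receptor gene Olfr153 at a distance of 21.2 kb, rose too, from 0.663 ± 0.106 to 1.95 ± 0.127 CPM (log2 1.55, SE 0.21, adjusted p = 5.73e-05). Tnks1bp1, 2416 kb before Pramel7, stood at 69.1 ± 3.19 against 63.4 ± 3.19 CPM and was not called (adjusted p = 0.0708), although it was called when libraries were scaled by size alone or by upper quartiles.

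The upstream sequences of this neighbouring pair are shown because the 2 genes rose together. Both are the 250 bases before the gene start in RefSeq on GRCm38.p6, chr2:87492419-87492668 on the minus strand and chr2:87506315-87506564 on the plus strand. Capitals mark matches, on either strand, to the SOX motifs ACAAAG and ACAATG and to CCAAT.
Pramel7: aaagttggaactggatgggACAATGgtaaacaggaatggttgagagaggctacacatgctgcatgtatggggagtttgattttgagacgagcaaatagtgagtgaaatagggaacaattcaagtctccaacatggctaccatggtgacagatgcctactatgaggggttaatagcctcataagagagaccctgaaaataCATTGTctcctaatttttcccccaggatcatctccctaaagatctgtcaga
Pramel6: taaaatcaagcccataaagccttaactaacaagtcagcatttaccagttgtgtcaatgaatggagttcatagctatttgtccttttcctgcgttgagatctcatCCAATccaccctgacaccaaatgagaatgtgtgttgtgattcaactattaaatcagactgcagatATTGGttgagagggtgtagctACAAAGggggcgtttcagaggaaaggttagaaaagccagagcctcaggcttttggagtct
ACAATG was present in the window of Pramel7 and in 11% of the 27025 RefSeq windows of this length. ACAAAG was in that of Pramel6 and in 16.5% of all. CCAAT was in that of Pramel6 and in 34.5% of all. A match describes letters only and is not a measured binding site. Promoter windows were at hand for 6 of the 10 markers.

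Other Pramel genes did not share one direction. The table held 47 family members, of which 8 were tested and 27 stayed at 0 throughout. Near-identical copies of those 27 were not searched for, and how reads shared between copies were counted is not given. A count of 0 therefore need not mean no expression. With Pramel6 and Pramel7 included, 4 were called higher and 3 lower. Pramel14 rose from 2.18 ± 0.154 to 5.53 ± 0.44 CPM (log2 1.35, SE 0.13, adjusted p = 5.20e-06) and Pramel30 from 5.54 ± 0.582 to 12.7 ± 0.614 CPM (1.20, SE 0.10, adjusted p = 1.47e-06). Pramel12 fell from 10.4 ± 0.411 to 7.02 ± 1.02 CPM (-0.58, SE 0.11, adjusted p = 7.61e-04).

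The partners through which Dppa3 and Pramel7 act changed in both directions. Of 15 genes for DNA methylation, its removal and the cullin 2 ligase 3 were called higher and 8 lower (median -0.17, against 0.03 over all tested genes). Uhrf1, the adaptor that brings DNMT1 to newly copied DNA, fell from a mean of 805 to 669.8 CPM (log2 -0.27, SE 0.05, adjusted p = 7.28e-04), and its relative Uhrf2 from 35.5 ± 2.73 to 19.7 ± 0.553 CPM (-0.85, SE 0.07, adjusted p = 1.43e-06). Among the ligase genes Eloc (-0.66, SE 0.05), Elob (-0.33, SE 0.05) and Cul2 (-0.21, SE 0.05) fell, with adjusted p from 1.60e-06 to 0.00194. The de novo methylation genes Dnmt3b and Dnmt3l each fell by 0.24, and Xpo1, which exports Dppa3 from the nucleus, fell by 0.17 (SE 0.06, adjusted p = 0.0344), a call lost with library size alone (-0.09), with upper quartile factors and without WT B or WT C. Dnmt1 (0.25, SE 0.04), Tet1 (0.35, SE 0.10) and Tet2 (0.41, SE 0.09) rose. These 3 calls did not hold with an offset for transcript length and GC content, where Dnmt1 stood at 0.07, Tet2 at 0.07 and Tet1 at -0.09. Elob likewise was not called with that offset (-0.09, adjusted p = 0.0659). Uhrf1 has a near-identical stretch in Gm5648, Dnmt3l shares exon sequence with Aire, Tet2 with Gm42567, and Elob with Srrm2.

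Dppa5a (Esg1, Entrez 434423, chromosome 9, 78367052 to 78368199) encodes a KH-domain RNA-binding protein and was the most abundant marker per transcript length. It stood at 1021, 1156 and 1005 CPM in R783H A, B and C and at 861, 862 and 860.2 CPM in WT. WT libraries were nearly identical (CV 0.127%), and R783H B stood above the other R783H libraries (CV 7.79%). Dppa5a rose by 0.30 (SE 0.05, adjusted p = 4.72e-04), and by 0.21 without R783H B (adjusted p = 7.64e-06). Its KH-domain relatives include Khdc3 (Filia), part of the maternal complex of the egg, which rose from 50.4 ± 1.15 to 83.2 ± 8.38 CPM (0.72, SE 0.07, adjusted p = 4.84e-06), in exons shared with Gm20509. Ooep, 8.7 kb from Dppa5a, stood at 49.9 ± 4.11 against 45.3 ± 1.52 CPM and was not called (0.14, SE 0.06, adjusted p = 0.0797), but it was called with library size alone (0.22) and with the length and GC offset (0.16). Of the 4 tested genes among these relatives and other members of the maternal complex 2 were higher and 1 lower (median 0.24). Zbed3 and Tle6 are members of that complex without a KH domain. Zbed3 rose by 0.33 and Tle6 fell by 0.26, a call that Tle6 lost without R783H A or WT A and with library size alone. Gsta4, a glutathione transferase gene 158 kb on the other side of Dppa5a, fell from 362 ± 5.7 to 294 ± 24.3 CPM (-0.30, SE 0.06, adjusted p = 7.01e-04).

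Utf1 (Entrez 22286, chromosome 7, 139943856 to 139945112) encodes a chromatin-bound factor of undifferentiated cells that limits the expression of developmental genes. It stood at 159, 180.1 and 164 CPM in R783H A, B and C and at 279, 268 and 250.1 CPM in WT, and the groups were far apart. Utf1 fell by 0.67 (SE 0.06, adjusted p = 2.27e-06), the largest decrease of the markers in this fit. Its transcript is short (1227 nt) and the richest in G and C of the 10 (63.5%). The 178 tested genes within 25% of its length and 5 percentage points of its GC content had a median of -0.26. With the length and GC offset Utf1 fell by 0.37 (adjusted p = 1.08e-07 by edgeR's test), so its direction and call held but its size did not, and with that offset the decrease of Dppa2 (0.42) was larger. Kndc1, 2.31 kb before Utf1, rose from 3.07 ± 0.176 to 5.31 ± 0.432 CPM (0.79, SE 0.12, adjusted p = 1.70e-04), and Tubgcp2, 50.8 kb after it, was not called (-0.04, SE 0.05, adjusted p = 0.483).

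UTF1 protein is known to compete with the polycomb complex PRC2 at promoters, to recruit the decapping factor DCP1A to stray transcripts, and to hold back Arf, a product of Cdkn2a. Of the 12 other tested genes in this group 4 rose and 4 fell (median -0.09). Cdkn2a rose from 17.3 ± 0.618 to 28.9 ± 2.19 CPM (0.74, SE 0.07, adjusted p = 5.70e-06). Myc fell from 65.4 ± 2.33 to 20.0 ± 1.11 CPM (-1.71, SE 0.06, adjusted p = 1.19e-08), and Ezh2, the PRC2 methyltransferase, from 207 ± 4.49 to 146 ± 6.91 CPM (-0.51, SE 0.05, adjusted p = 3.58e-06), in exons shared with Gm26625. With the length and GC offset the group, Utf1 included, had 1 gene higher and 8 lower, against 4 and 5 without it, and without R783H B 8 were lower. Gene counts cannot separate Arf from the Ink4a product of Cdkn2a.

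Zfp42 (Rex1, Entrez 22702, chromosome 8, 43295067 to 43307009) encodes a zinc finger protein derived from YY1 and is the usual reporter gene of the naive state. It stood at 905, 868 and 885 CPM in R783H A, B and C and at 1125, 1141 and 1133 CPM in WT. The groups were well apart and tight, with a CV of 2.07% and 0.687%. Zfp42 fell by 0.36 (SE 0.04, adjusted p = 1.13e-05). Yy1 itself fell from 185 ± 3.1 to 139.9 ± 8.87 CPM (-0.40, SE 0.05, adjusted p = 4.26e-05). Of 8 other tested relatives and neighbours of Zfp42 5 were higher and 1 lower (median 0.32). Triml2, 101 kb away and with a stretch near-identical to Mapk12, rose from 159 ± 1.48 to 189.6 ± 6.59 CPM (0.26, SE 0.04, adjusted p = 3.06e-04). Fat1, 1626 kb away on the other side, rose from 313 ± 18.3 to 407 ± 12.3 CPM (0.38, SE 0.05, adjusted p = 4.83e-05), but stood at -0.05 and was not called with the length and GC offset and shares exons with Gm2366. Xist and Tsix, overlapping antisense RNAs of X inactivation on which Rex1 and its degrading ligase RLIM act, had 1.94 ± 0.266 and 3.23 ± 0.348 CPM in WT and 4.44 ± 0.181 and 7.02 ± 0.48 CPM in R783H. Both rose (1.20 and 1.12), though reads of the 2 RNAs cannot be told apart where counting ignores strand, and whether it did is not given in the sources used here. The Zfp42 transcript shares 266 nt with Zfp42-ps1.

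The upstream sequences of Zfp42 and Utf1 are shown because these were abundant markers that fell and both are known targets of OCT4 and SOX2. They are the 250 bases before the gene start in RefSeq on GRCm38.p6, chr8:43307010-43307259 on the minus strand and chr7:139943606-139943855 on the plus strand. Capitals mark matches on either strand to the POU core ATGCAAA, to GGGCGG (bound by SP and KLF factors) and to CCAAT.
Zfp42: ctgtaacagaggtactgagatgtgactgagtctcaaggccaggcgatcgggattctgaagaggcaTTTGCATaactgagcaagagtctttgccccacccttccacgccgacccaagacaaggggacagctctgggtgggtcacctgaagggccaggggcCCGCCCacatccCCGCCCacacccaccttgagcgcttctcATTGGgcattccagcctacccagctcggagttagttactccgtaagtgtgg
Utf1: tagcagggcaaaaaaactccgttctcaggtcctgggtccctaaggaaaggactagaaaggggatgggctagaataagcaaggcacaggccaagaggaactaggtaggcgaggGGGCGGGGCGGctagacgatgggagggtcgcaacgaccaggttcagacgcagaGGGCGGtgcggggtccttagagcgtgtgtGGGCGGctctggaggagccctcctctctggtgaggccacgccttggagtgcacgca
The POU core, read here as TTTGCAT on the printed strand, was in the window of Zfp42 alone among the 6 markers and in 4.06% of all 27025 windows. Sequence outside these 250 bases was not searched, so a window without a match does not show that a gene lacks the site. GGGCGG was in 4 of the 6 (Fgf4, Tcl1, Utf1 and Zfp42) and in 32.9% of all windows, with the first 2 matches of Utf1 overlapping each other. AAGGTCA, the ESRRB motif, CACGTG and TATAAA were in none of the 6, against 4.05%, 6.05% and 13% of all windows. Markers with GGGCGG were thus found among both those that rose and those that fell.

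Fgf4 (Entrez 14175, chromosome 7, 144861386 to 144865245) encodes the growth factor through which stem cells stimulate their own FGF receptors and the ERK kinases, a signal that readies them for differentiation and that PD0325901 blocks at MEK. It stood at 334, 344 and 328 CPM in R783H A, B and C and at 271, 273 and 269 CPM in WT. Replicates differed little and the groups did not meet. Fgf4 rose by 0.31 (SE 0.04, adjusted p = 4.54e-05). Its neighbours in the same FGF gene cluster moved the other way, at low levels. Fgf15, 31.3 kb away, fell from 1.82 ± 0.109 to 0.341 ± 0.103 CPM (-2.40, SE 0.25, adjusted p = 9.88e-06), and Fgf3, 18 kb away, from 3.75 ± 0.456 to 2.74 ± 0.613 CPM (-0.47, SE 0.17, adjusted p = 0.0352). The call of Fgf3 was lost without R783H A, R783H C or WT B and with library size alone.

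Genes of FGF signalling, including other ligands, receptors, heparan sulfate genes and genes downstream of the receptors, changed in both directions. Of 43 tested genes other than Fgf4 16 were called higher and 20 lower (median -0.07, against 0.03 over all tested genes). The number called lower was 13 when libraries were scaled by size alone and 12 without WT B. Etv4, an ETS factor induced by FGF, fell from 207 ± 7.52 to 89.7 ± 5 CPM (-1.21, SE 0.05, adjusted p = 3.55e-08). Sdc1, a heparan sulfate proteoglycan that can present FGFs, fell from 31.7 ± 0.777 to 14.2 ± 1.92 CPM (-1.16, SE 0.09, adjusted p = 8.50e-07). Fgfrl1, a receptor without a kinase domain, rose from 6.32 ± 0.684 to 10.6 ± 1.09 CPM (0.74, SE 0.11, adjusted p = 1.59e-04). Fgfr1, the main FGF receptor of these cells and named for its role after its values were seen, stood at 187 ± 3.48 against 178 ± 1.55 CPM and was not called (0.07, SE 0.04, adjusted p = 0.15).

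Tcl1 (Entrez 21432, chromosome 12, 105216753 to 105222737) encodes a small protein that binds the AKT kinases and raises their activity. It stood at 117, 115 and 111 CPM in R783H A, B and C and at 90.5, 87.4 and 86.7 CPM in WT, with no overlap. Tcl1 rose by 0.37 (SE 0.04, adjusted p = 2.55e-05). Its count ratio to Fgf4 was 0.341 ± 0.00752 in R783H and 0.325 ± 0.0077 in WT. The nearest values, 0.335 in R783H B and 0.334 in WT A, almost met, and this difference was not tested. Tunar, a non-coding RNA gene 114 kb away, fell from 3.55 ± 0.603 to 0.609 ± 0.224 CPM (-2.52, SE 0.25, adjusted p = 5.48e-06), and Snhg10, 184 kb on the other side, was not called (-0.43, SE 0.26, adjusted p = 0.171). Of 22 other tested genes of the TCL1 family and the AKT pathway 10 were called higher and 6 lower (median 0.16). Pik3r1, a regulatory subunit of PI3 kinase, rose from 25.6 ± 2.48 to 49.4 ± 4.39 CPM (0.94, SE 0.08, adjusted p = 2.58e-06), and Phlpp1, a phosphatase of AKT, from 24.8 ± 1.35 to 38.7 ± 0.514 CPM (0.65, SE 0.06, adjusted p = 3.31e-06). Pik3r2, another regulatory subunit and named after its values were seen, fell from 107 ± 6 to 80.7 ± 3.03 CPM (-0.40, SE 0.05, adjusted p = 6.05e-05). Eras, a RAS protein of stem cells that activates PI3 kinase, fell from 10.9 ± 1.14 to 4.6 ± 0.327 CPM (-1.25, SE 0.11, adjusted p = 2.33e-06), in exons shared with Pcsk1n. With the length and GC offset 5 genes of this list were higher, Tcl1 included, against 11 without it.

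**Figure D2:**
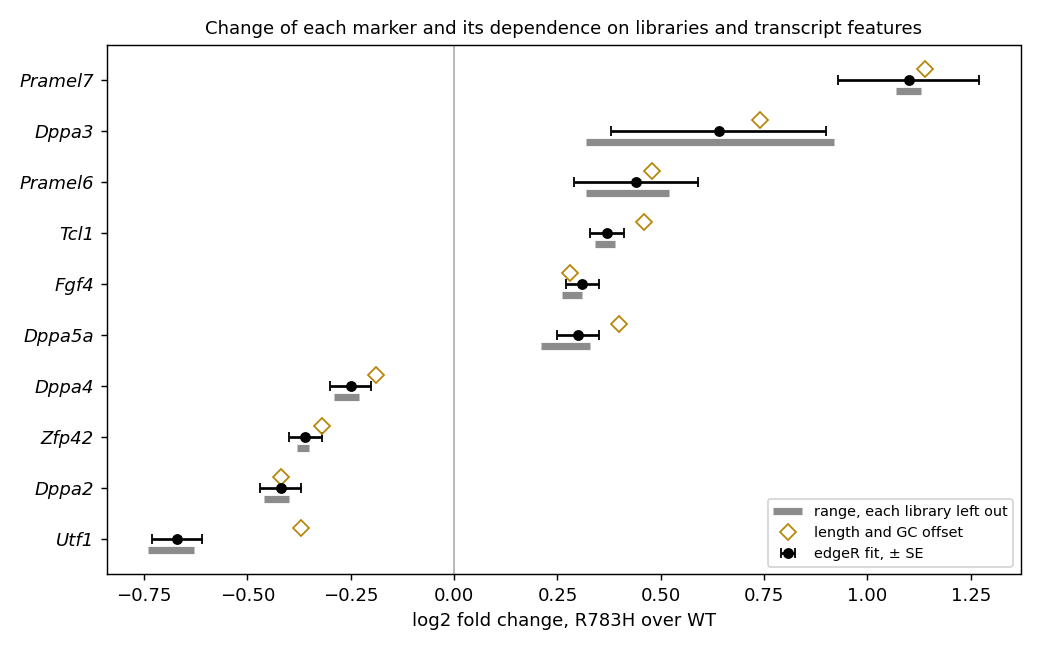
Log2 fold change of R783H over WT for each marker (horizontal axis), with the edgeR estimate and its SE as a black point and whisker, the range over the 6 fits that each left out 1 library as a grey bar, and the value with the length and GC offset as an open diamond. Every marker stays on its side of 0, the bar of Dppa3 is the longest (0.32 to 0.92), and the diamond of Utf1 lies at -0.37 against -0.67.

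Levels per kilobase of the longest transcript put the markers in the same order in both groups. Dppa5a led with 1391 ± 1.77 CPM per kilobase in WT and 1713 ± 134 in R783H, followed by Zfp42 (617 ± 4.24 and 482 ± 9.99) and Utf1 (217 ± 11.9 and 136 ± 9.16). Next came Fgf4 at 89.5 ± 0.692 and 111 ± 2.67 CPM per kilobase, Tcl1 at 63.1 ± 1.45 and 81.7 ± 2.09, Dppa4 at 47.5 ± 0.319 and 39.9 ± 1.53, and Dppa2 at 26.7 ± 1.36 and 20.0 ± 0.226. Dppa3 (3.59 ± 1.72 and 5.68 ± 0.691), Pramel6 (1.43 ± 0.22 and 1.93 ± 0.126) and Pramel7 (0.602 ± 0.024 and 1.29 ± 0.038) closed the order. No neighbours in this order overlapped over the 3 libraries of either group. Proportions within this order shifted. Utf1 and Fgf4 had a count ratio of 0.98 ± 0.0501 in WT and 0.499 ± 0.024 in R783H, and Zfp42 and Dppa5a one of 1.32 ± 0.00847 and 0.839 ± 0.0763 (SD, n = 3 each). By CPM, Zfp42 was above Dppa5a in WT and below it in R783H.

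**Figure D3:**
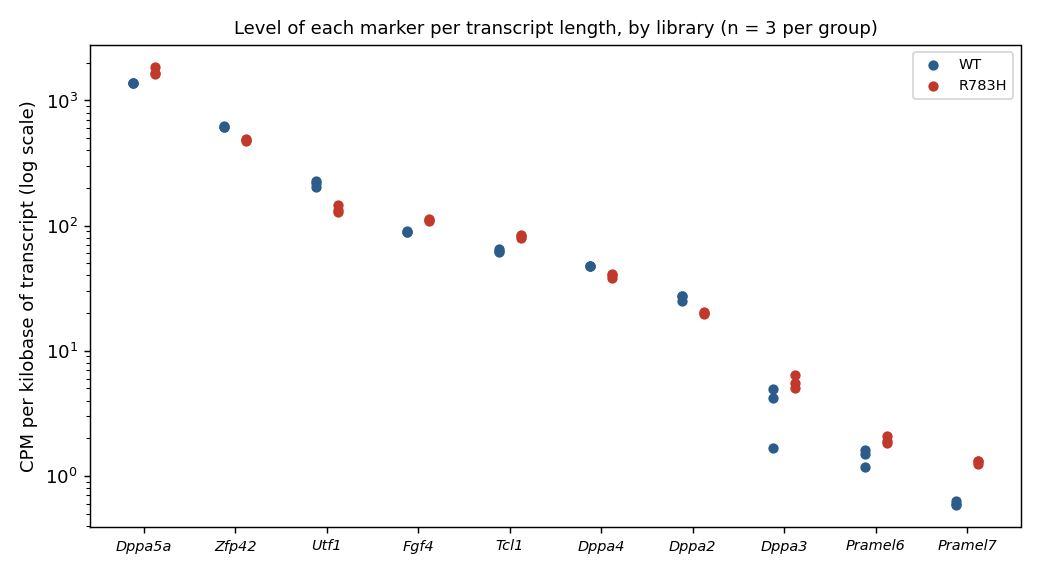
CPM per kilobase of transcript of each marker on a logarithmic vertical axis, with 1 point per library in WT and R783H (n = 3 per group), ordered by the WT mean. Levels span from 1391 CPM per kilobase for Dppa5a to 0.602 for Pramel7 in WT, and the order is the same in R783H.

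The transcription factors known to act on these genes did not share one direction. Of 23 tested 8 were called higher and 7 lower (median 0.02). Pou5f1 fell from 1022 ± 31.8 to 882 ± 64.2 CPM (-0.21, SE 0.05, adjusted p = 0.00491) and Nanog from 628 ± 11.7 to 535 ± 6.16 CPM (-0.23, SE 0.04, adjusted p = 2.79e-04), while Sox2, named for its role after its values were seen, stood at 543 ± 41.1 against 537 ± 2.04 CPM and was not called (0.02, SE 0.05, adjusted p = 0.812). The call of Pou5f1 was lost with the length and GC offset (-0.07, adjusted p = 0.0776). Among others, Sall4, Tcf3 (E2A, Entrez 21423), Max and Nr0b1 were also called lower, by 0.36, 0.36, 0.22 and 0.14. Tcf7l1 (Entrez 21415), whose product is also known as TCF3, is a separate gene, named after its values were seen. It was not called (0.04, SE 0.06, adjusted p = 0.611). Sall1 (0.53, SE 0.05), Prdm14 (0.22), Tbx3 (0.20), Tfcp2l1 (0.17), Nr5a2 (0.16), Rest (0.37) and Sp1 (0.25) were called higher, and Otx2, a factor of the formative epiblast, had the largest change of the 23 at 2.04 (SE 0.11), from 2.77 ± 0.292 to 11.4 ± 0.546 CPM. Exons of Pou5f1, Sall4, Tfcp2l1, Tbx3 and Otx2 overlap those of other annotated genes. The offset reversed Tfcp2l1, to -0.17 with an adjusted p of 4.78e-04, and Sp1, to -0.04. It ended the calls of Tbx3, Nr5a2, Rest and Nr0b1. The list then had 5 factors called higher, some of them not called without the offset, and it had 5 without WT B. Nr0b1, Nr5a2 and Tfcp2l1 were also not called in 4 of the 6 fits that left out a library.

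Other marker genes of embryonic stem cells also changed in both directions. Of 37 tested 14 were called higher and 15 lower (median -0.03). Aire rose from 9.09 ± 0.523 to 21.3 ± 2.22 CPM (1.23, SE 0.09, adjusted p = 9.42e-07), and Eras, described above, and Lin28a, an inhibitor of let-7 maturation (376 ± 1.34 to 174 ± 2.6 CPM, -1.11, SE 0.04, adjusted p = 1.19e-08), fell. Aire shares exon sequence with Dnmt3l and Lin28a with Gm13061.

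**Figure D4:**
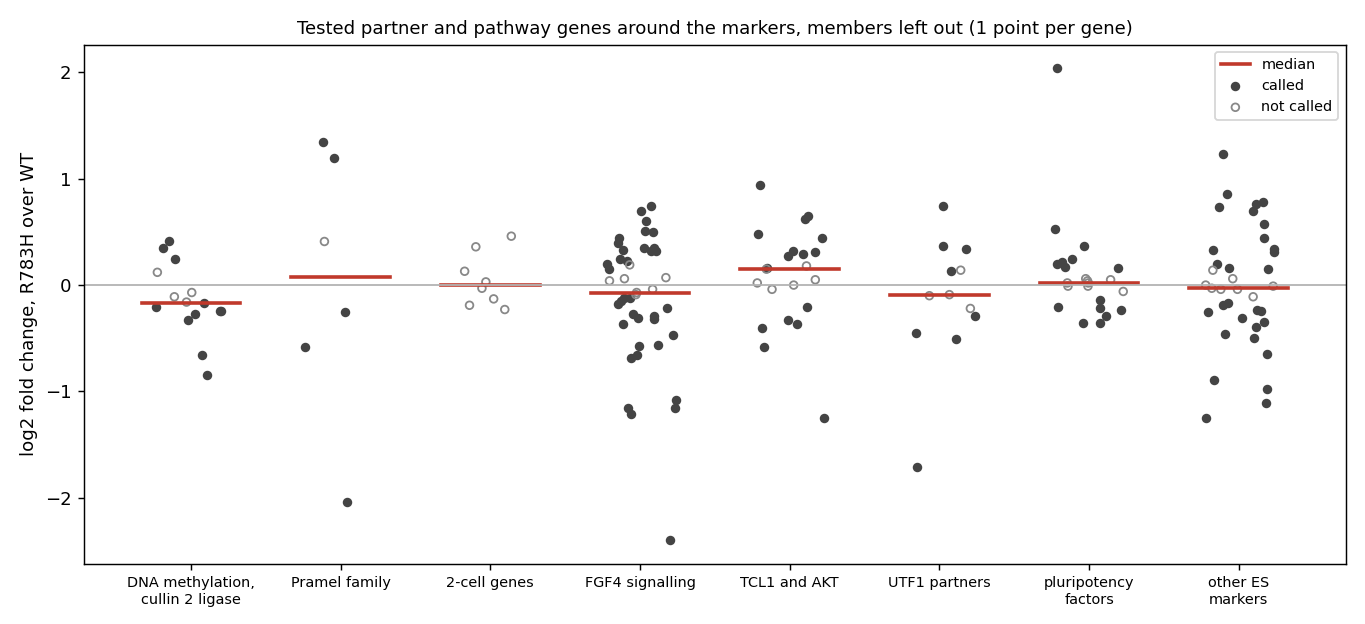
Log2 fold change of R783H over WT (vertical axis) of the tested genes in 8 lists around the markers, with the markers themselves left out, 1 point per gene, filled where called and open where not, and a bar at the list median. Medians of these 8 lists lie between -0.17 for the DNA methylation and cullin 2 genes and 0.16 for the AKT pathway, and the 8 genes of the 2-cell embryo are all open.

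Markers of pluripotent cells were at high levels in all libraries, with 6875 to 6936 CPM over 12 genes in R783H and 6668 to 6815 CPM in WT, 3 called higher and 4 lower. Those of other cell types summed to less. Fibroblast markers summed to 19.4 to 21.7 CPM in R783H and 18.9 to 21.4 CPM in WT over 14 genes, with 1 higher and 2 lower of 8 tested. The increase was not called with DESeq2, with the length and GC offset or without R783H C or WT A, and 1 was lower without WT A or with at least 10 counts in every library. Formative and primed epiblast markers summed to 310.0 to 319.6 against 367 to 378 CPM over 11 genes (3 higher and 6 lower of 10 tested). Most of that sum was Dnmt3b, at 178 ± 4.76 against 210.2 ± 1.55 CPM. Foxd3, picked out after its values were seen, stood at 34.3 ± 1.85 against 67.4 ± 4.16 CPM. Mesoderm markers summed to 39.2 to 43.9 against 68.4 to 71.5 CPM over 10 genes (7 lower of 8 tested). Neural markers summed to 84.4 to 91.9 against 117 to 122 CPM over 10 genes, with Dcx at 0 (2 higher and 2 lower of 5 tested, but 1 lower without R783H C, WT A, WT B or WT C, with DESeq2, with library size alone, with thinned counts and with at least 10 counts in every library). Endoderm markers summed to 281 to 290.5 against 155 to 164 CPM over 12 genes, with Afp at 0 (3 higher and 1 lower of 7 tested). Most of that sum was Lama1, a laminin gene picked out after its values were seen, at 265 ± 4.89 against 138 ± 6.16 CPM. Without WT C 5 endoderm markers were higher, and without any 1 of the R783H libraries or WT B 2 were lower. Trophoblast markers summed to 54.8 to 62.7 against 72.5 to 75.6 CPM over 12 genes, with Tpbpa and Prl3d1 at 0 (2 higher and 2 lower of 6 tested). Germ cell markers, the type that Dppa3 also marks, summed to 27.5 to 31.5 against 38.4 to 39 CPM over 10 genes (3 higher and 6 lower of 10 tested). Their part in the differences of the 10 markers was not tested.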

How the data were processed

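Poly(A)-selected RNA was sequenced from 3 R783H and 3 WT libraries, grouped by their titles. The authors deposited raw read counts per Entrez Gene identifier, 1 column per library per the file header. Per the submitters' processing notes the build was mm10 and the tools included CASAVA 1.4, HISAT2 and SAMtools; the counting tool, annotation and use of strand are not given in the sources used here. Symbols and coordinates came from RefSeq on GRCm38.p6 (25275 of 27179 identifiers matched), and transcript length and GC content from the longest GENCODE M21 transcript (13067 of 14199 tested genes). Members share no exon with another gene there; near-identical copies (98% over at least 100 nt) came from BLAST 2.17.0.

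Genes were filtered with edgeR's filterByExpr (minimum count 10, total 15), scaled with TMM, and tested with edgeR 4.0.16 (R 4.3.3) quasi-likelihood tests, two-sided, with group as the term and Benjamini-Hochberg adjustment over all tested genes. SE is the log2 difference over the square root of F. Alternatives, 17 in all, included DESeq2 1.42.0, limma-voom 3.58.1, other scalings and filters, thinning to equal depth, a length and GC offset, a replicate block and leaving out each library. On simulated counts for 14199 genes the fit called 81 of 100 genes changed 2-fold, 74 of 100 changed 1.5-fold and 9 unchanged genes. Far fewer genes changed there than the 64.5% called in the data. The adjusted p depends on that share, so these rates do not carry over to this comparison. In simulated counts with a length trend, 5731 of 12917 genes were called without the offset and 1 with it. A count of 3, the detection floor, is 0.103 to 0.144 CPM; such floors cover counting error only. In each list up to 3 called genes with the largest change and at least 50 counts on average in the higher group were named, and every called gene of the methylation and factor lists could be. Motifs were searched in the 250 bases before each gene start, without the 50 bases after it that were first planned. The members and lists were chosen with earlier results of these data known.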

Additional observations from a re-analysis of the deposited data

How the results depend on the processing

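All 10 markers kept their direction under the 17 alternatives, and 8 of them kept their call; Dppa3 lost it under 8 alternatives and Pramel6 under 3. The number of markers called higher ran from 4 to 6 and the number called lower was 4 throughout. Leaving out each library gave 8161 to 9882 called genes over the whole table, against 9152. Deviations of same-lettered libraries from their group means correlated across genes at -0.07, 0.00682 and 0.0851. Pairs with different letters ran from -0.133 to 0.126, so the same-lettered pairs did not stand out. With 3 libraries per group these values cannot exclude that a letter marks a shared culture or day. With the replicate block 9260 genes were called, all 10 markers among them, and Dppa3 stood at 0.68 (adjusted p = 0.0135, edgeR). Genes outside the markers were followed over the alternatives as well, except those named only after their values were seen. These 62 genes gave 43 lost calls, 5 gained calls and 10 reversals. With the length and GC offset Fat1 stood at -0.05, Sp1 at -0.04, Tet1 at -0.09 and Tfcp2l1 at -0.17, and with the replicate block added at -0.04, -0.04, -0.09 and -0.17. Gm10224, a tested neighbour of Dppa3 that shares sequence with Rpl15, ranged from -0.01 without R783H B to 0.33 without R783H A, and Tubgcp2 stood at 0.04 with library size alone. The cause was not tested. Counts were lowest for Dppa3, Pramel6 and Pramel7, at 22 to 152 per library.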

Other observations

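Patterns over the 6 libraries were compared by the root mean square (RMS) difference of log2 CPM centred on each gene's mean, as a description. Among the markers, Fgf4 lay nearest to Tcl1 (RMS 0.0429) and to Dppa5a (0.0451), Dppa2 to Zfp42 (0.053), and Dppa3 farthest from Utf1 (0.887). The nearest other genes averaging at least 50 counts were Cnbp (0.00947) and Tfam (0.0136) for Zfp42, Klhl22 (0.0127) for Dppa4, Spr (0.0153) and Eif4a3 (0.0159) for Utf1, Phc1 (0.0155) for Fgf4, Asap1 (0.0171) for Tcl1, Hectd3 (0.0176) for Dppa5a, Rragb (0.0222) for Dppa2, Bhlha15 (0.0399) for Pramel6 and Ttc28 (0.0413) for Pramel7. Such closeness was common, as 1890 genes lay within 0.1 of Zfp42 and 641 within 0.1 of Utf1. For Dppa3, whose pattern holds the low library WT A (1.39 CPM, against 3.47 and 4.12 CPM in WT B and WT C), Pde4c was nearest at 0.17, and 0 of the genes averaging at least 50 counts lay within 0.1.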
